A study of Mus musculus with 2 samples.

Results

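Transforming growth factor beta (TGF-beta) was followed through 9 genes in subcutaneous tumors of wild-type and tight skin (TSK) mice: the ligands Tgfb1, Tgfb2 and Tgfb3, the receptors Tgfbr1, Tgfbr2 and Tgfbr3, and the target genes Smad7, Skil and Tgfbi. They were picked by symbol, as the 9 of 32285 genes in the count tables that make up this core set, and each symbol matched 1 gene. The tumors grew after injection of 1000000 SO cells, a mouse ovarian cancer line made by loss of p53 and gain of myc and H-ras, into female C57BL/6 mice aged 6 to 8 weeks. WT mice served as controls, and TSK mice carried an in-frame duplication within Fbn1, the gene of the matrix protein fibrillin-1 and were heterozygous, since homozygotes die before birth. The tumors of several mice were pooled for each genotype and each pool gave 1 droplet library, so there was 1 WT and 1 TSK library and no test between genotypes. TSK is used as a model of some features of systemic sclerosis, and the duplication is present in every cell of the host but not in the injected cancer cells.

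TGF-beta ligands are secreted in a latent complex that is held in the matrix by latent TGF-beta binding proteins and fibrillin, and they become active when integrins or proteases release them. The active ligand binds TGFBR2, which recruits and phosphorylates TGFBR1, and the receptor pair then activates SMAD2 and SMAD3; TGFBR3 (betaglycan) presents ligand and is needed most for the ligand made from Tgfb2. SMAD7 and SKIL are induced by the pathway and restrain it, and TGFBI is a secreted matrix protein named for its induction by TGF-beta. In tumors the pathway is known for turning fibroblasts into contractile myofibroblasts and for holding back T cells.

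The WT library held 21225411 unique molecular identifiers (UMIs, 1 per captured RNA molecule) in 2332 barcodes, and the TSK library held 48296765 UMIs in 4436 barcodes. Cells were kept with at least 200 genes, at least 500 UMIs and at most 10% mitochondrial UMIs, which 1693 WT and 3216 TSK cells met. Of the barcodes, 263 were found in both libraries, and the 251 WT and 255 TSK cells among them were left out, so that 1442 WT and 2961 TSK cells remained with medians of 7658.5 and 7302 UMIs per cell. Each cell was given a lineage from raw UMIs of listed marker genes, and a name below says only which cells it resembles. The WT and TSK libraries held 89 and 964 cancer-like, 136 and 224 fibroblast-like, 60 and 67 endothelial-like, 205 and 378 macrophage-like, 122 and 73 monocyte-like, 40 and 212 neutrophil-like and 456 and 281 T-like cells. Mural-like cells, the smooth muscle and pericyte cells of vessels, numbered 14 and 38, too few for a comparison. Cells with markers of several lineages (52 and 144) and cells with too few marker UMIs (226 and 527) were left without a name.

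The leading genes included Lgals7, Krt18 and Cdkn2a in cancer-like cells, Col3a1, Col1a2 and Dcn in fibroblast-like cells, C1qa, C1qb and Mrc1 in macrophage-like cells, Chil3 and Lyz2 in monocyte-like cells, S100a8 and S100a9 in neutrophil-like cells, and Cd3g, Ccl5 and Gzmb in T-like cells. In endothelial-like cells Fabp4, Igfbp7 and Cdh5 were among the leading genes, and mural markers were present as well: 8 of the 8 listed mural markers had a UMI in WT and 7 of 8 in TSK (Vtn was at 0), with a summed level of 375 and 478 UMIs per 1000000 (CPM) and Rgs5 as the most abundant. The libraries differed in how much cancer RNA was found in other cells. Lgals7, the leading cancer marker, stood in WT at 0.366% of its cancer-like level in T-like cells and at 0.225% in macrophage-like cells. In TSK it stood at 6.78% in T-like, 6.46% in macrophage-like, 7.75% in endothelial-like, 4.86% in fibroblast-like and 19.5% in neutrophil-like cells. Over the list of 8 cancer markers, the summed level went from 15.0 to 110 CPM in fibroblast-like, from 7.64 to 124 CPM in macrophage-like, from 11.5 to 129 CPM in T-like and from 8.40 to 476 CPM in neutrophil-like cells, with Cdkn2a or Lgals7 as its most abundant gene in TSK and Krt8 and Msln at 0 in all 4 TSK lineages. The part of this RNA in the levels below was not tested.

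Levels are given as CPM, the gene's UMIs per 1000000 UMIs of all genes in that lineage, with exact Poisson 95% intervals, and differences as the log2 ratio of TSK over WT with an exact conditional 95% interval. These intervals cover counting error only, not the spread between cells, mice, pools or libraries. They treat each UMI as independent, although a single cell can hold many of a gene's UMIs, so they can be too narrow. Levels were compared between lineages for the same gene and not between genes, and every order or rank of levels covers only the 7 lineages with at least 30 cells in each library. In each lineage the median log2 ratio of all genes with at least 50 UMIs lay above 0, at 0.32 in fibroblast-like, 0.29 in endothelial-like, 0.21 in macrophage-like, 0.19 in monocyte-like, 0.15 in cancer-like and 0.14 in T-like and in neutrophil-like cells, and member ratios are to be read against it.

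Tgfb1, the ligand of most immune and platelet TGF-beta, was highest in monocyte-like, T-like, macrophage-like and endothelial-like cells of the 7 main lineages. The few mural-like cells held 193 CPM (145 to 252) in WT and 287 CPM (241 to 339) in TSK. On build GRCm38 it spans chr7:25687002-25705077 on the plus strand. Its level in monocyte-like cells was 330 CPM (298 to 365) in WT and 343 CPM (290 to 404) in TSK, and in T-like cells 295 CPM (277 to 314) and 332 CPM (295 to 372). Macrophage-like cells held 239 and 231 CPM. The log2 ratios in these 3 lineages were 0.06 (-0.23 to 0.33), 0.17 (-0.02 to 0.36) and -0.05 (-0.20 to 0.11), all with intervals that included 0; after subtraction of the median of all genes the macrophage-like ratio was -0.26. Tgfb1 was higher in TSK in the lineages of the stroma: endothelial-like cells went from 178 CPM (154 to 205) in WT to 319 CPM (280 to 362) in TSK, a log2 ratio of 0.84 (0.56 to 1.12), and fibroblast-like cells from 46.2 to 78.03 CPM, a log2 ratio of 0.76 (0.44 to 1.07). In cancer-like cells it was lower in TSK, at 99.8 CPM in WT and 74.3 CPM in TSK (log2 ratio -0.43, -0.60 to -0.25). The cancer-like difference turned to 0.47 (-0.80 to 2.12) when cells with more than 1 marker UMI of other lineages were left out, which kept 17 WT and 177 TSK cancer-like cells. The fibroblast-like ratio was 0.077 when cells over 10000 UMIs were left out.

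In WT the order of Tgfb1 levels was monocyte-like, T-like, macrophage-like, endothelial-like, cancer-like, neutrophil-like and fibroblast-like; the intervals of the first pair overlapped, and those of the last 3 overlapped between neighbours. In TSK the intervals of monocyte-like, T-like and endothelial-like cells overlapped at the top, macrophage-like cells came next, apart from those above and below, and the intervals of neighbours among fibroblast-like, cancer-like and neutrophil-like cells overlapped. The main source by molecules differed between the libraries: T-like cells supplied 31.4% of the 3175 Tgfb1 UMIs in WT and 6.26% of the 4744 in TSK, and cancer-like cells 9.54% and 48.0%. Cancer-like cells held 17.8% and 67.1% of the UMIs of all genes, so in both libraries they gave less Tgfb1 than their share of RNA. These shares rest on the large cells: without cells over 10000 UMIs, T-like cells gave 58.2% and 24.1% of Tgfb1, macrophage-like cells 7.101% and 29.6% and cancer-like cells 0.418% and 4.31%.

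**Figure D1:**
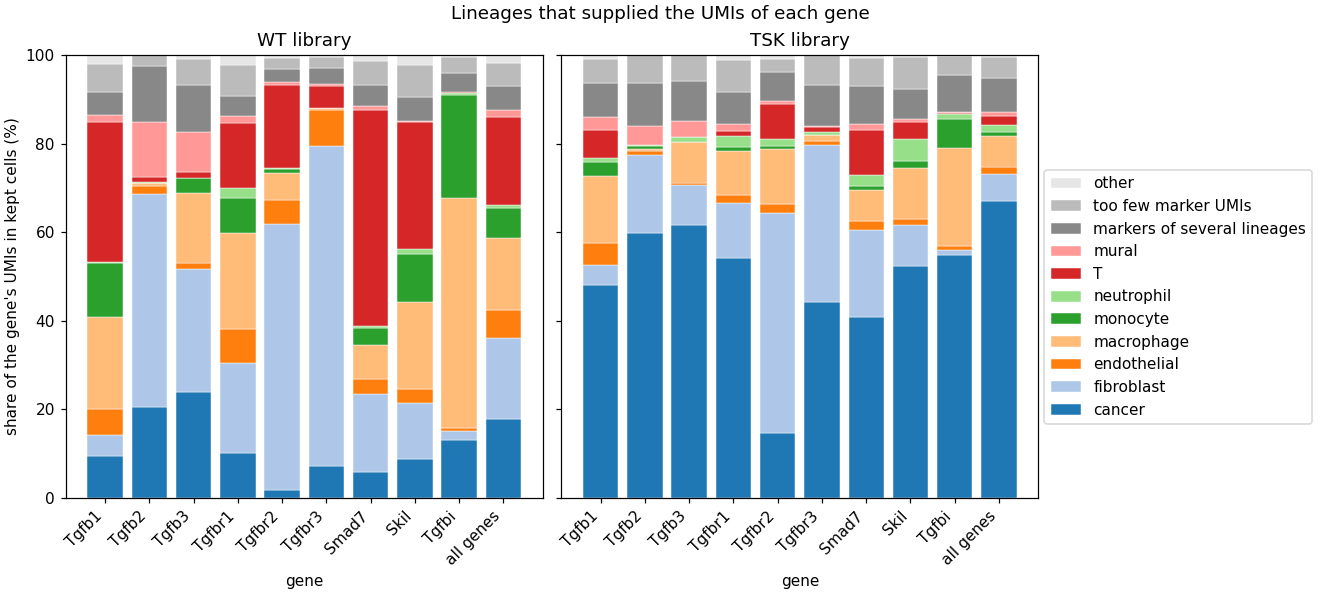
Share of each gene's UMIs in kept cells (y axis, percent) by the lineage they came from, with 1 bar for each gene and a last bar for all genes, in the WT library (left) and the TSK library (right). T-like cells supplied 48.8% of Smad7 in WT and 10.3% in TSK, while fibroblast-like cells supplied 60.2% and 49.6% of Tgfbr2; without cells over 10000 UMIs these shares were 77.8% and 38.6%, and 10.3% and 38.2%.

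Tgfb2, a ligand made mostly by mesenchymal and epithelial cells, was a fibroblast and cancer cell transcript and was higher in TSK. It spans chr1:186622792-186705989 on the minus strand, where Gm29491 overlaps it on the opposite strand. Fibroblast-like cells held 211 Tgfb2 UMIs in WT and 396 in TSK, or 67.3 CPM (58.5 to 77.0) and 144 CPM (130 to 159), which is 2.14-fold higher in TSK (log2 ratio 1.10, 0.85 to 1.34). A single cell held 28.4% of the WT and 10.6% of the TSK molecules in this lineage; without that cell in each library the log2 ratio was 1.42. Among the 7 main lineages fibroblast-like cells ranked first and cancer-like cells second in both libraries, with intervals apart between the first and the second. Cancer-like cells held 29.6 and 44.1 CPM (log2 ratio 0.57, 0.26 to 0.90). In TSK monocyte-like cells all 16 UMIs came from 1 cell. Endothelial-like cells had 8 UMIs in WT and 22 in TSK, or 7.42 and 28.7 CPM (log2 ratio 1.95, 0.73 to 3.33); with the barcodes of both libraries kept this ratio was 0.24. The few mural-like cells held 200.2 CPM in WT and 200.1 CPM in TSK, above the fibroblast-like level in each, on 55 and 97 UMIs, of which 1 cell held 43.6% and 45.4%.

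The share of fibroblast-like cells with a Tgfb2 UMI was 35.3% in WT and 42.9% in TSK, at medians of 23438.5 and 11250.5 UMIs per cell. When every cell was thinned down to an equal depth of 500 UMIs, 2.49% of WT and 5.99% of TSK cells had one. T-like cells, which should lack the gene, gave 1.10% and 0.356% at medians of 6799 and 2879 UMIs, and 0.0643% and 0.0507% after thinning. The higher TSK level of Tgfb2 held in fibroblast-like cells with a UMI of Pi16 or Clec3b, markers of adventitial fibroblasts (64.9 and 124 CPM in 124 and 182 cells), and in those with neither (89.9 and 221 CPM in 12 and 42 cells). It also held in the 119 WT and 146 TSK fibroblast-like cells with no UMI of the cancer cell genes Lgals7, Cdkn2a or Hmga2, at a log2 ratio of 1.56. Every alternative tried gave a positive ratio, between 0.77 and 4.25. The value of 4.25 came from the 29 WT and 81 TSK cells with at most 1 marker UMI of other lineages. Without cells over 10000 UMIs, 22 WT and 94 TSK cells were left. In both settings the WT side holds few Tgfb2 molecules, so the size of these ratios is uncertain.

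The promoter of Tgfb2 is shown because it carries 2 copies of CAGAC, the short box that SMAD proteins can bind. The window runs from 250 bases before to 50 bases after the start in the RefSeq table on GRCm38.p6, chr1:186705940-186706239, minus strand, 5′ to 3′, with CAGAC (or GTCTG on the other strand) in capitals.
Tgfb2: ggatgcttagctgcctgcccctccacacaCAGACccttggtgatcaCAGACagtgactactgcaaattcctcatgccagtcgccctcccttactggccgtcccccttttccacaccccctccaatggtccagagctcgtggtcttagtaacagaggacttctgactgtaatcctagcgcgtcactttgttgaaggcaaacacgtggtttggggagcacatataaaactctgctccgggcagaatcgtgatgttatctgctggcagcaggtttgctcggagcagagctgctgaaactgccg
Of the 9 genes, 5 had an entry in that table (Tgfb1, Tgfb2, Tgfbr1, Tgfbr2 and Tgfbi). CAGAC or GTCTG was present in 49.6% of all 32851 promoters, so its presence here does not set Tgfb2 apart. The AP-1 site TGACTCA or TGAGTCA, searched on both strands, was in 5.20% of all promoters and in no window of the 5 genes.

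Tgfb3, the ligand with the lowest counts here, was found mainly in fibroblast-like, cancer-like and macrophage-like cells among the 7 main lineages. The few mural-like cells held more, 102 CPM (67.7 to 147) on 28 UMIs in WT and 66.0 CPM (45.1 to 93.2) on 32 UMIs in TSK. It lies at chr12:86056745-86079041, minus strand, and overlaps Ttll5 and Gm48008 on the opposite strand. The intervals of neighbours in the order of levels overlapped throughout in WT, and in TSK they were apart only between macrophage-like and cancer-like cells. Fibroblast-like cells held 27.4 CPM in WT and 29.0 CPM in TSK (log2 ratio 0.08, -0.38 to 0.54). Cancer-like cells held 24.4 and 17.8 CPM (-0.45, -0.81 to -0.08), and macrophage-like cells 17.8 and 26.5 CPM (0.57, 0.04 to 1.11). In the other main lineages each library had at most 10 UMIs of Tgfb3, and in TSK T-like cells there were 0 (interval 0 to 4.12 CPM). With cells holding more than 1 marker UMI of other lineages left out, the cancer-like ratio turned to 0.64 and the macrophage-like ratio to -0.058.

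**Figure D2:**
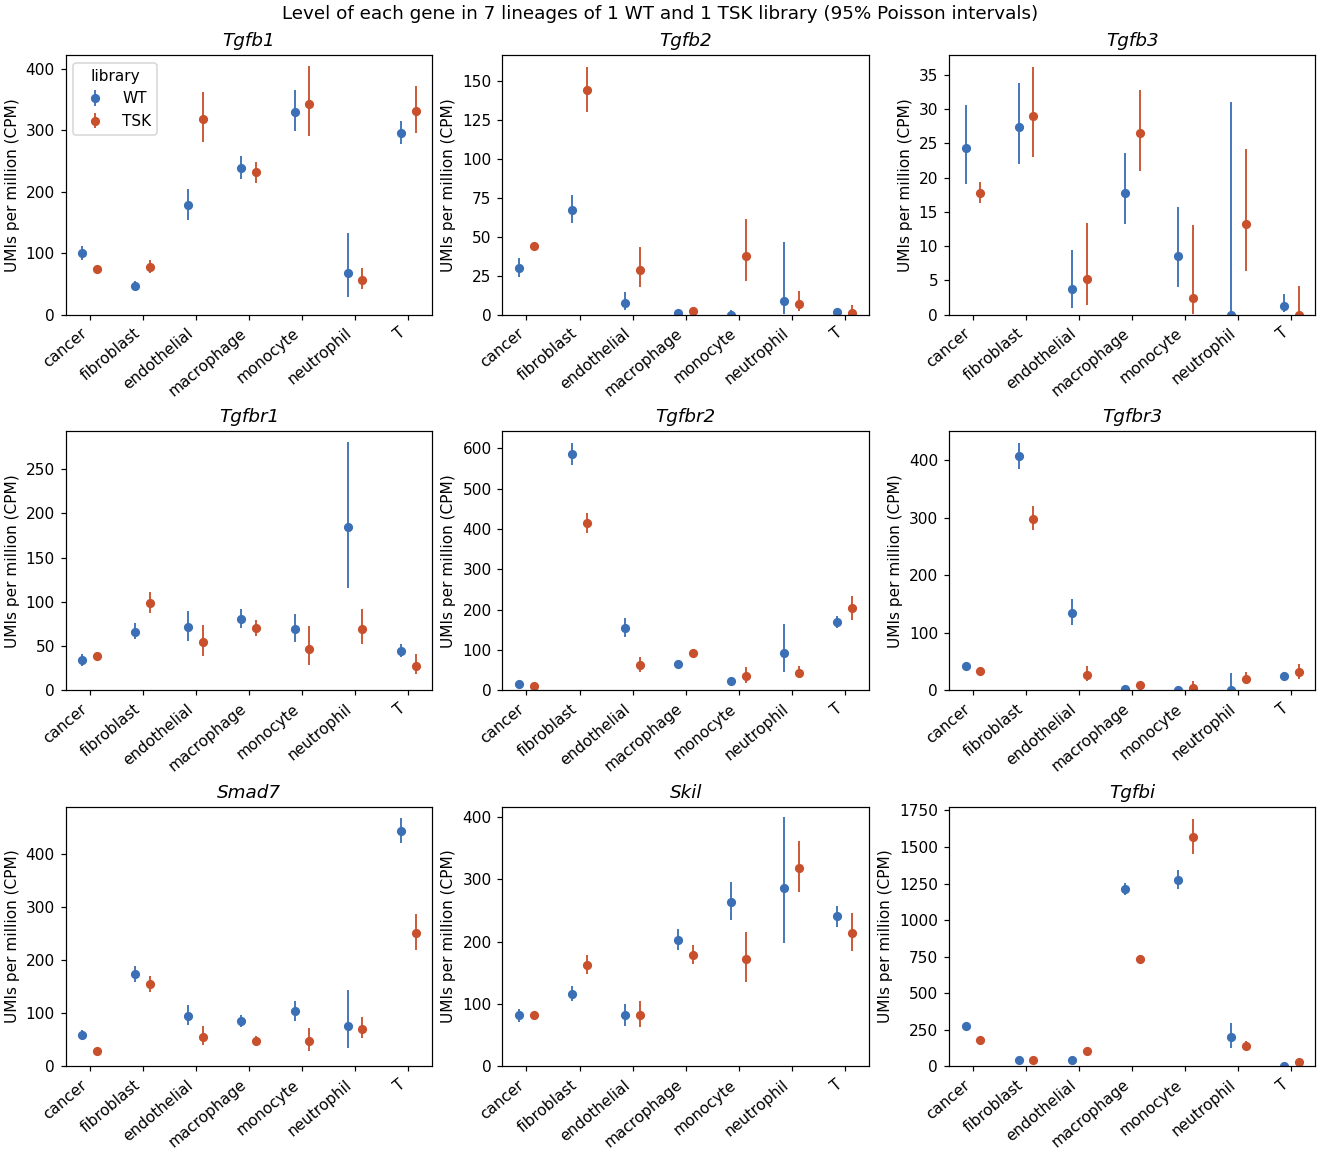
Level of each of the 9 genes (y axis, UMIs per 1000000 of all genes in the lineage, from 0) in 7 lineages (x axis), with a point for the WT library and a point for the TSK library and 95% Poisson intervals for counting error. Tgfb2, Tgfbr2 and Tgfbr3 stood highest in fibroblast-like cells, Smad7 in T-like cells and Tgfbi in monocyte-like cells of both libraries.

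Tgfbr2 and Tgfbr3 had their highest levels in fibroblast-like cells, and Tgfbr1 did not in WT. Tgfbr2, the ligand-binding type II receptor (chr9:116084293-116175360, minus strand), was at 586 CPM (559 to 613) in WT and 414 CPM (391 to 439) in TSK fibroblast-like cells. T-like cells came next with 169 and 203 CPM; in WT their interval overlapped that of endothelial-like cells, and in TSK it stood above all lower lineages. Cancer-like cells were the lowest of the 7 lineages in both libraries, at 17.1 and 11.1 CPM. Of all Tgfbr2 UMIs, 60.2% in WT and 49.6% in TSK came from fibroblast-like cells, which held 18.4% and 6.03% of the UMIs of all genes. Without cells over 10000 UMIs the fibroblast-like shares were 10.3% and 38.2%, and T-like cells gave 66.8% and 23.3%.

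Tgfbr2 was lower in TSK in both stromal lineages. In fibroblast-like cells the log2 ratio was -0.50 (-0.61 to -0.39), with the TSK interval below the WT interval. In endothelial-like cells the level was 154 CPM in WT and 62.5 CPM in TSK, 2.46-fold lower (log2 ratio -1.30, -1.80 to -0.83). In cancer-like cells the log2 ratio was -0.63 (-1.05 to -0.18), while macrophage-like cells held 65.8 and 92.6 CPM (0.49, 0.22 to 0.77) and T-like cells had a ratio of 0.27 (0.02 to 0.51). Counting only cells with at most 1 marker UMI of other lineages, the fibroblast-like ratio was 0.021 (-0.25 to 0.30) in 29 WT and 81 TSK cells and the endothelial-like ratio -0.46 in 18 and 12 cells. With equal weight for each cell, the cancer-like ratio was -0.027.

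Tgfbr3, the betaglycan co-receptor (chr5:107106570-107289629, minus strand), stood out in fibroblast-like cells of both libraries. It was at 407 CPM (385 to 430) in WT and 299 CPM (278.6 to 320) in TSK fibroblast-like cells, a log2 ratio of -0.45 (-0.57 to -0.32). In endothelial-like cells it was at 135 CPM (114 to 158) on 145 UMIs in WT and at 27.4 CPM (16.9 to 41.8) on 21 UMIs in TSK, 4.92-fold lower (log2 ratio -2.30, -3.03 to -1.63). Endothelial-like cells ranked second after fibroblast-like cells in WT, and in TSK their interval overlapped those of cancer-like cells (33.6 CPM) and T-like cells (31.3 CPM). The few mural-like cells held 25.5 CPM in WT and 10.3 CPM in TSK, below the cancer-like level in each (42.2 and 33.6 CPM). In macrophage-like cells the counts were 7 and 32 UMIs, or 2.55 and 10.3 CPM (log2 ratio 2.02, 0.81 to 3.44), and 37.5% of the TSK molecules came from 1 cell. The 8 fibroblast markers summed to 17.5 and 64.9 CPM in these cells, led by Pi16 in WT and by Pcolce in TSK (110 of 201 UMIs). Cancer-like cells held Pcolce as well (7650 UMIs in TSK). The part of fibroblast or cancer RNA in the Tgfbr3 value was not tested. The endothelial-like ratio was -0.030 when only the 18 WT and 12 TSK cells with at most 1 marker UMI of other lineages were counted. The mural markers in this lineage, given above, were 375 and 478 CPM, and their part in the result was not tested.

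Tgfbr1, the type I receptor kinase (chr4:47353222-47414931, plus strand), was more even across lineages. Neutrophil-like cells ranked first in WT, above the next without overlap. In TSK fibroblast-like cells ranked first, with an interval that overlapped that of neutrophil-like cells in the third place (52.3 to 91.4 CPM). Tgfbr1 was at 66.3 CPM (57.6 to 76.0) in WT and 98.7 CPM (87.3 to 111) in TSK fibroblast-like cells (log2 ratio 0.57, 0.31 to 0.84). Among the receptors in these cells the ratio was thus above 0 for Tgfbr1 and below 0 for Tgfbr2 and Tgfbr3. The Tgfbr1 interval took in the median of all genes there, 0.32. After subtraction of that median the ratios were 0.25 for Tgfbr1, -0.82 for Tgfbr2 and -0.77 for Tgfbr3. Neutrophil-like cells held 22 and 53 UMIs, or 185 and 69.9 CPM (-1.40, -2.15 to -0.62). A single cell held 31.8% of the WT molecules, and the ratio was -0.40 with at most 1 marker UMI of other lineages and -0.84 without cells over 10000 UMIs. T-like cells held 44.4 and 28.0 CPM (-0.67, -1.34 to -0.05). Cancer-like cells had 33.9 and 38.6 CPM, whose intervals overlapped. In fibroblast-like cells with neither a Pi16 nor a Clec3b UMI the Tgfbr1 ratio was -0.049.

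**Figure D3:**
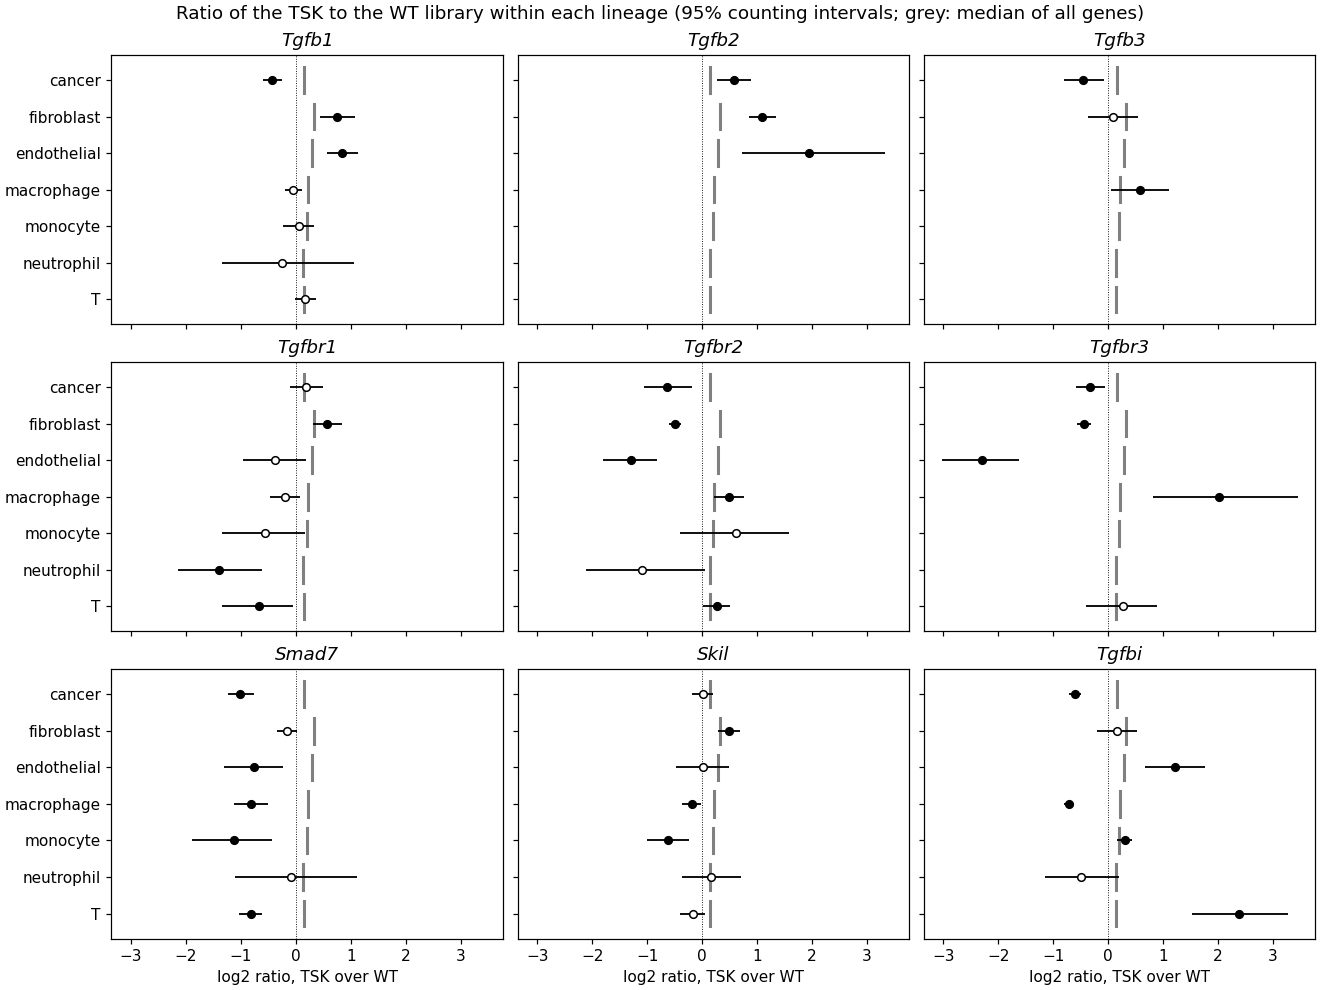
Log2 ratio of TSK over WT (x axis) for each gene in each lineage (y axis) with at least 20 UMIs of the gene, with 95% counting intervals; filled points have an interval that leaves out 0, and grey bars are the median ratio of all genes in the lineage. The points of Smad7 lie between -1.13 and -0.09, those of fibroblast-like and neutrophil-like cells with intervals that include 0.

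Smad7, the inhibitory SMAD that blocks the type I receptor, was lower in TSK in 5 of 7 lineages with an interval below 0, and had ratios below 0 with intervals that included 0 in the other two. The gene lies at chr18:75367529-75395935, plus strand. T-like cells ranked first and fibroblast-like cells second in both libraries, each above the next without overlap, and the neighbours among the other 5 lineages overlapped in each. T-like cells held 443 CPM (421 to 466) in WT and 250 CPM (219 to 285) in TSK, 1.77-fold lower (log2 ratio -0.82, -1.03 to -0.62). Cancer-like cells held 58.3 and 29.0 CPM (-1.01, -1.24 to -0.77), monocyte-like cells 103 and 47.0 CPM (-1.13, -1.90 to -0.44), macrophage-like cells 84.7 and 48.1 CPM (-0.82, -1.12 to -0.51) and endothelial-like cells 94.6 and 56.0 CPM (-0.76, -1.31 to -0.23). In fibroblast-like cells, with 174 and 155 CPM, and in neutrophil-like cells, with 75.6 and 71.2 CPM, the intervals of the ratio included 0. With at most 1 marker UMI of other lineages the ratio was 0.85 (0.25 to 1.49) in fibroblast-like and 0.41 in neutrophil-like cells. The cancer-like ratio was 0.64 (-1.29 to 3.73) in the 17 WT and 177 TSK cells with at most 1 marker UMI of other lineages.

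Within T-like cells, Smad7 was at 468 CPM in WT and 228 CPM in TSK in cells with a CD8 UMI and no Foxp3 UMI (324 and 181 cells; log2 ratio -1.04, -1.30 to -0.79). In cells with neither CD8 nor Foxp3 UMIs it was at 376 and 277 CPM (119 and 90 cells; -0.44, -0.84 to -0.05). The 13 WT and 10 TSK cells with a Foxp3 UMI held 49 and 17 UMIs, with a ratio of 0.08 whose interval ran from -0.81 to 0.90. The alternatives gave T-like ratios of Smad7 between -1.04 and -0.82. Dissociation of tissue can induce immediate-early and heat-shock genes, and 8 of these were summed: in T-like cells they stood at 963 CPM in WT and 896 CPM in TSK (log2 ratio -0.11, -0.22 to 0.01), with Fosb (-0.71, -0.97 to -0.46) and Egr1 (-0.60, -0.91 to -0.30) lower and Jun (0.72, 0.42 to 1.02) and Hspa1b (0.39, 0.084 to 0.69) higher in TSK. The sum stood in monocyte-like cells at 2260 and 1889 CPM (-0.26), and in cancer-like cells at 2035 and 3510 CPM (0.79, 0.75 to 0.82). Its log2 ratio was 0.37 in macrophage-like, 0.24 in fibroblast-like, -0.40 in endothelial-like and -0.088 in neutrophil-like cells. The part of dissociation in the Smad7 values was not tested.

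Skil, whose product SnoN is a SMAD corepressor (chr3:31095058-31122577, plus strand), stood highest of the 7 main lineages in neutrophil-like cells, with 286 CPM (198 to 399) in WT and 318 CPM (278.8 to 360) in TSK; in WT the interval overlapped those of monocyte-like, T-like and macrophage-like cells, and in TSK it stood above those of the other 6 main lineages. T-like cells held 240 and 214 CPM, and cancer-like cells 81.7 and 82.3 CPM, in both cases without a difference beyond counting error. It was lower in TSK in monocyte-like cells, at 264 and 172 CPM (log2 ratio -0.62, -1.01 to -0.25), and in macrophage-like cells, at 203 and 178 CPM (-0.19, -0.36 to -0.016). Skil was higher in fibroblast-like cells, at 116 and 163 CPM (0.49, 0.29 to 0.69). That interval took in the median of all genes in these cells (0.32), and the ratio was 0.17 after its subtraction. The macrophage-like ratio kept its sign under every alternative run. The fibroblast-like ratio was -0.84 without cells over 10000 UMIs (22 WT and 94 TSK cells), and the monocyte-like ratio 0.097 with at most 1 marker UMI of other lineages.

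Tgfbi, the secreted matrix protein, was highest in monocyte-like and macrophage-like cells of the main lineages. It lies at chr13:56609523-56639562, plus strand. Monocyte-like cells held 1274 CPM (1210 to 1340) in WT and 1567 CPM (1450 to 1690) in TSK (log2 ratio 0.30, 0.16 to 0.43), and macrophage-like cells 1212 CPM (1171 to 1254) and 734 CPM (704 to 765), 1.65-fold lower in TSK (-0.72, -0.80 to -0.65). In WT the levels of these neighbours overlapped, and in TSK the monocyte-like interval lay wholly above the macrophage-like one. Cancer-like cells held 277 and 183 CPM (-0.60, -0.71 to -0.50), and fibroblast-like cells only 42.4 and 47.2 CPM. Neutrophil-like cells held 202 and 142 CPM, below the cancer-like level in each library. By number of molecules the main source was macrophage-like cells in WT, with 51.8% of 6431 UMIs, and cancer-like cells in TSK, with 54.8% of 10217 UMIs; without cells over 10000 UMIs monocyte-like cells gave 46.8% and 25.3% in WT and TSK, macrophage-like cells 35.5% and 47.8% and cancer-like cells 1.502% and 6.87%. Fibroblast-like cells differed among themselves: those with a Pi16 or Clec3b UMI held 45.8 and 30.2 CPM (-0.60, -1.05 to -0.16), and the 12 WT and 42 TSK cells with neither held 3 and 64 Tgfbi UMIs (3.49, 1.88 to 5.80). In fibroblast-like cells with no UMI of Lgals7, Cdkn2a or Hmga2 the ratio was -0.75.

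Tgfbi was low but higher in TSK in T-like and endothelial-like cells. T-like cells held 21 UMIs in WT and 29 in TSK, or 6.22 and 32.4 CPM (log2 ratio 2.38, 1.52 to 3.27), and endothelial-like cells 44.5 and 103 CPM (1.21, 0.67 to 1.76). In the same TSK T-like cells Lgals7 of the cancer cells stood at 6.78% of its cancer-like level and C1qa of the macrophages at 0.317% of its macrophage-like level (0.366% and 0.139% in WT), and the part of free RNA in the Tgfbi value was not tested. The endothelial-like ratio was -0.18 without cells over 10000 UMIs and 0.12 under a stricter gate.

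The promoter of Tgfbi is shown as that of the target gene with the largest counts; the window is chr13:56609336-56609635 on GRCm38.p6, plus strand, 5′ to 3′, again with CAGAC or GTCTG in capitals (2 copies, both as GTCTG).
Tgfbi: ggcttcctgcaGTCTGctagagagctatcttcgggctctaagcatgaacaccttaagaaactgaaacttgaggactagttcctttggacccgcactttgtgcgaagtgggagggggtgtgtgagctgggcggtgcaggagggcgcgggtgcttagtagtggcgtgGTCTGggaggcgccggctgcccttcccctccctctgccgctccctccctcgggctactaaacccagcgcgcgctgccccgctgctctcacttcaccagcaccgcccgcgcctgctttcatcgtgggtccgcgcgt
As for Tgfb2, a match of 5 letters says nothing on binding, and about as many promoters hold one as do not.

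Counted against all genes of the same lineage with at least 50 UMIs, few of the 9 genes differed 2-fold. In fibroblast-like cells 1 of 9 (Tgfb2) was at least 2-fold higher and 0 were at least 2-fold lower in TSK, where 9.29% and 2.86% of all 8590 genes were. In cancer-like cells 0 of 9 were higher and 1 (Smad7) was lower, beside 8.92% and 6.9% of 12423 genes. In endothelial-like cells 1 of 7 (Tgfbi) was higher and 2 (Tgfbr2 and Tgfbr3) were lower, beside 14.1% and 5.53% of 4989 genes. In macrophage-like cells neither direction held any of 7, beside 7.26% and 1.45% of 8150 genes. In monocyte-like cells 0 of 5 were higher and 1 (Smad7) was lower, beside 6.79% and 4.26% of 4034 genes. In neutrophil-like cells 0 of 5 were higher and 1 (Tgfbr1) was lower, beside 37.3% and 14.9% of 2668 genes. In T-like cells 1 of 7 (Tgfbi) was higher and 0 were lower, beside 2.72% and 1.58% of 6627 genes. The median log2 ratio of the members was -0.43 in cancer-like cells and 0.15 in fibroblast-like cells, where the medians of all genes were 0.15 and 0.32.

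Summed over all kept cells, the ratios take in the mix of lineages as well as the level within them. Smad7 was at 179 CPM in WT and 47.5 CPM in TSK (log2 ratio -1.92), further apart than in any single lineage, and Tgfbr2 at 179 and 50.4 CPM (-1.83). Tgfb2 was at 25.7 and 49.5 CPM (0.94). Tgfb1 was at 186 and 104 CPM (-0.84), lower in TSK, while in T-like, monocyte-like and macrophage-like cells the interval of its ratio included 0. T-like cells were 31.6% of WT and 9.49% of TSK cells, and cancer-like cells 6.17% and 32.6%.

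The wider pathway was described with a list of 56 further genes for the latent complex, other receptors, SMAD proteins and target genes. In fibroblast-like cells 50 of them had at least 50 UMIs, of which 6 were at least 2-fold higher in TSK and 1 was lower, beside 9.29% and 2.86% of all genes, with a median log2 ratio of 0.20 beside 0.32 for all genes. All 6 that were higher were target genes, a large part of the list: 17 fibrotic and contractile and 8 early and immune targets were among the 50. Of the 17, 4 were at least 2-fold higher and 0 lower, and of the 8, 2 were higher and 0 lower. Of the 17, 10 had an interval above 0 and 6 below 0. The share of all genes with such intervals was not taken, so these last counts have no background. Among the contractile and matrix targets, Tagln (transgelin) was at 27.7 CPM in WT and 195 CPM in TSK (log2 ratio 2.81), Acta2 (smooth muscle actin) at 56.4 and 221 CPM (1.97), Lrrc15, a marker of myofibroblast-like cancer-associated fibroblasts, at 26.1 and 78.8 CPM (1.59) and Timp1, an inhibitor of matrix proteases, at 681 and 1748 CPM (1.36). The cell cycle inhibitors Cdkn2b and Cdkn1a, both known to be induced by TGF-beta, had log2 ratios of 2.37 (9 and 41 UMIs) and 1.36. The study named Acta2, Tagln and Lrrc15 from these same samples, so their direction is not independent evidence.

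The listed gene that was 2-fold lower was Itgb6, an integrin chain that activates latent TGF-beta, at 81.3 and 37.4 CPM (-1.12, -1.47 to -0.79). The targets with an interval below 0 included Ccn1, a matricellular protein (-0.75), and the collagen genes Col1a1 (-0.38), Col5a1 (-0.33), Col3a1 (-0.25) and Col1a2 (-0.10), besides Ltbp2 (-0.35). In the other direction Ccn2 (connective tissue growth factor) was at 83.9 and 148 CPM (0.82, 0.60 to 1.05). The signal carriers Smad2 (0.06), Smad3 (0.21) and Smad4 (0.25) had intervals that included 0. Fbn1 itself was at 1533 and 1724 CPM (0.17, 0.11 to 0.23), and since 3′ counts include normal and duplicated transcripts alike, this does not check the genotype. Of the latent complex genes, Ltbp1, which tethers latent ligand to the matrix, was at 158 and 120 CPM (-0.40), and Lrrc32, which holds latent ligand on the cell surface, at 66.3 and 91.5 CPM (0.46).

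In cancer-like cells 48 listed genes could be compared, 5 at least 2-fold higher and 7 lower in TSK beside 8.92% and 6.9% of all genes, with a median of -0.17. Together these 12 were 6 without cells over 10000 UMIs and 20 with at most 1 marker UMI of other lineages. Lox, the collagen cross-linking enzyme, was at 19.8 and 1.18 CPM (log2 ratio -4.07), Col1a1 at 138 and 32.9 CPM (-2.07), Id2, a transcription inhibitor, at 37.6 and 12.4 CPM (-1.59), Ltbp1 at 53.7 and 17.9 CPM (-1.59) and Timp1 at 870 and 336 CPM (-1.37). Tagln was the exception among the named genes, at 1.32 and 9.01 CPM (2.77). Timp1 and Ltbp1 thus stood lower in TSK cancer-like cells, while in fibroblast-like cells Timp1 was higher. Lox and Col1a1 were far higher in fibroblast-like cells, at 847 and 9880 CPM in WT, and fibroblast-like cells held 18.4% of all WT and 6.03% of all TSK UMIs. In cancer-like cells the 8 fibroblast markers, all present, summed to 573 and 432 CPM. Pcolce, which was dropped from the gate, made up most of this sum, with 895 of 1738 UMIs in WT and 7650 of 13246 in TSK. Dcn stood at 1.76% and 1.78% of its fibroblast-like level. The part of fibroblast RNA in the cancer-like values was not tested.

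In endothelial-like cells 8 of 41 listed genes were at least 2-fold higher and 2 lower, beside 14.1% and 5.53% of all genes; together these 10 were 6 and 4 under the same settings. Acta2 was at 40.8 and 448 CPM (3.46), Col1a1 at 64.0 and 296 CPM (2.21), Timp1 at 31.5 and 133 CPM (2.07), Postn (periostin) at 26.0 and 80.8 CPM (1.64) and Fn1 (fibronectin) at 315 and 873 CPM (1.47), while Ltbp4, another binding protein of latent ligand, was at 148 and 52.1 CPM (-1.50). Acta2 is also a mural gene. In the same cells the 8 fibroblast markers summed to 59.4 CPM in WT (5 present; Lum, Clec3b and Pi16 at 0) and 152 CPM in TSK (6 present; Dpt and Clec3b at 0), led by Pcolce, and the 8 cancer markers to 10.2 and 162 CPM. The part of mural, fibroblast and cancer RNA in these values was not tested. In macrophage-like cells 4 of 36 were higher and 4 lower, beside 7.26% and 1.45% of all genes (together 8, and 3 either without cells over 10000 UMIs or with at most 1 marker UMI of other lineages): Sparc, a matrix glycoprotein, was at 21.1 and 75.2 CPM (1.83) and Smad5, a carrier of bone morphogenetic protein signals, at 11.3 and 29.7 CPM (1.40), whereas Bambi, a decoy receptor, was at 16.7 and 4.20 CPM, and Col1a1 (-2.12), Col1a2 (-1.94) and Timp1 (-1.36) were lower in TSK as well. In these cells 7 of 8 fibroblast markers had a UMI in each library (Pdgfra was at 0 in WT and Clec3b in TSK), with a sum of 17.5 CPM in WT, led by Pi16, and 64.9 CPM in TSK, led by Pcolce; Dcn stood at 0.100% and 0.385% of its fibroblast-like level. Col3a1 was at 27.3 and 32.3 CPM (0.24, -0.20 to 0.69). Of the TSK UMIs of the fibroblast markers in these cells, Pcolce made up 110 of 201. The part of fibroblast RNA in the collagen values was not tested.

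The other immune lineages had few listed genes with enough counts. In monocyte-like cells 1 of 21 was 2-fold higher and 0 were lower, beside 6.79% and 4.26% of all genes: Pmepa1, a target that dampens SMAD signaling, at 44.4 and 139 CPM (1.65). In the same cells Lgals7 stood at 0.0586% and 4.58% of its cancer-like level and the cancer markers summed to 5.97 and 108 CPM, and their part in the value was not tested. In T-like cells 3 of 23 were higher and 0 lower, beside 2.72% and 1.58% of all genes: Itgav, the integrin chain that helps activate latent TGF-beta, at 197 and 500 CPM (1.34, 1.17 to 1.52), Vegfa at 7.99 and 29.1 CPM (1.86) and Fn1 at 8.88 and 80.5 CPM (3.18). In these T-like cells Lgals7 stood at 0.366% and 6.78% of its cancer-like level, and the cancer markers summed to 11.5 and 129 CPM. Cancer-like cells held Fn1 at 1301 and 1183 CPM, and the part of cancer RNA in the T-like values was not tested. Among the SMADs in T-like cells, Smad3 was at 74.9 and 127 CPM (0.77, 0.44 to 1.09). In neutrophil-like cells 5 of 19 were higher and 2 lower, a smaller share than the 37.3% and 14.9% of all genes, with Fn1 on 2 and 527 UMIs (log2 ratio 5.37), Itgav on 2 and 94 UMIs (2.88), Sparc on 2 and 70 (2.46), Col3a1 on 4 and 92 (1.85), Timp1 on 3 and 66 (1.79) and Nrros, which anchors latent ligand on myeloid cells, on 21 and 29 (-2.21). In the same cells Lgals7 stood at 19.5% of its cancer-like level in TSK and had no UMI in WT, and the fibroblast markers summed to 75.6 CPM in WT (4 of 8 present, led by Pi16) and 178 CPM in TSK (7 of 8, led by Pcolce). Pcolce, also present in cancer-like cells, made up 81 of the 135 TSK UMIs of the fibroblast markers. The part of cancer or fibroblast RNA in these values was not tested. Under the same settings the counts were 3 and 2 in monocyte-like, 2 and 1 in T-like and 4 and 1 in neutrophil-like cells, and in fibroblast-like cells 6 and 14.

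**Figure D4:**
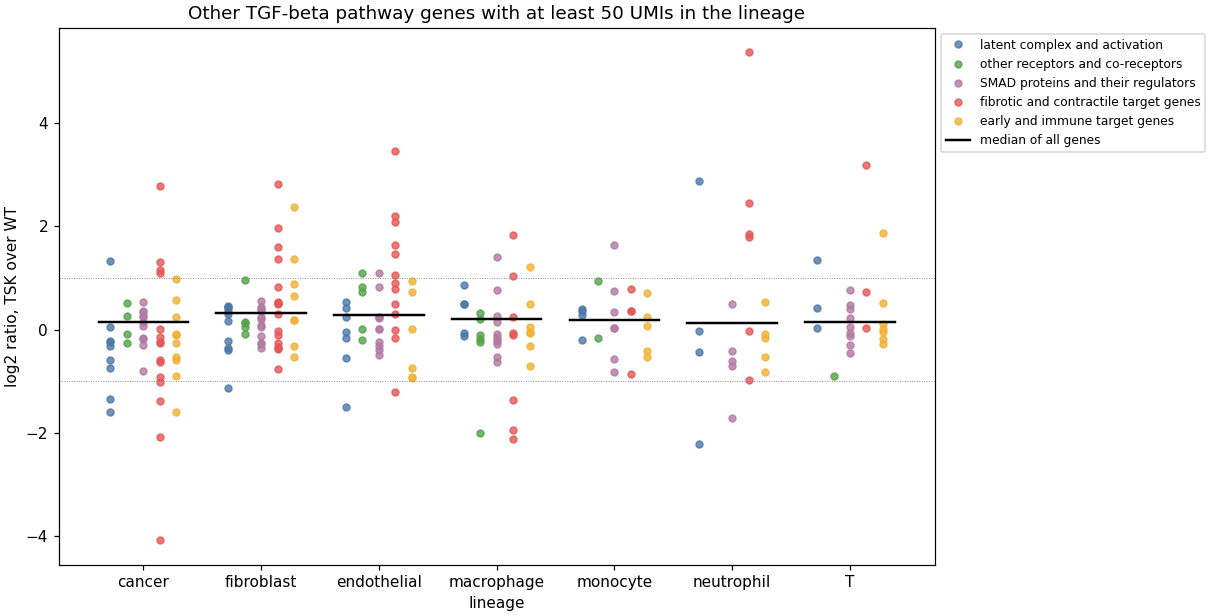
Log2 ratio of TSK over WT (y axis) of the listed pathway genes other than the 9 members with at least 50 UMIs, by lineage (x axis) and gene group (color), with the median of all genes as a black line and dotted lines at 2-fold. In fibroblast-like cells the points above 2-fold are target genes, led by Tagln at 2.81. There 17 fibrotic and contractile and 8 early and immune target genes were among the 50 compared. In cancer-like cells Lox lies lowest at -4.07.

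The genes whose log2 level was most like each member over the 14 lineage sums (7 lineages in each of 2 libraries) were taken from 11439 genes, as a description; the sums share libraries and depth. For Tgfb2 they were Dzip1l, Dnm3os and Fzd2 (Pearson r 0.949, 0.941 and 0.921), and for Tgfbr3 St3gal2, Plscr4 and Itih5 (0.960, 0.960 and 0.939). For Smad7 they were Mir155hg, Flt3l and Gramd3 (0.919, 0.899 and 0.891), and for Tgfbi Tns3, Hdac5 and B4galt6 (0.941, 0.941 and 0.933). Tgfb1 was closest to Wdr37, Ifi213 and Tln1 (0.933, 0.931 and 0.929) and Skil to Tnfrsf1b, Pim1 and Ell2 (0.945, 0.943 and 0.934). Tgfbr1 was closest to Tlcd2, Zfp36 and Cx3cr1 (0.944, 0.925 and 0.918), Tgfb3 to Mir99ahg, Timp2 and Cp (0.928, 0.914 and 0.899), and Tgfbr2 to Nfatc1, Slco3a1 and Mia3 (0.876, 0.871 and 0.861).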

How the data were processed

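Tumors of 1 WT and 1 TSK pool were sequenced with 10x Genomics 3′ chemistry. The authors made the deposited UMI counts with Cell Ranger (7.1.0 in the file headers, 7.1.1 in the submitters' processing notes; build mm10); they are raw, and whether intronic reads were counted is not given in the sources used here. Of 32285 gene identifiers, 32158 were found in GENCODE M21, which gave coordinates.

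Cells were gated on raw marker UMIs: at least 3 UMIs of at least 2 markers of a lineage and 2 times those of the next. Monocyte-like cells were split from macrophage-like cells by the larger marker sum. The scoring rule was chosen with the files at hand. After a first look at marker and member levels the gate was revised, and Pcolce, Mmp2, Ly6c2, Plac8, Ccr2 and Vcan were dropped from it. The split of monocyte-like from macrophage-like cells used the full marker lists, so Ly6c2, Plac8, Ccr2 and Vcan still counted there. The members and lists were chosen with earlier results of these data known. Doublets were left in and no caller was run. The study's upper limit of 10000 UMIs and genes per cell, which 522 WT and 1260 TSK kept cells exceeded, was an alternative.

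Counts were summed per library and lineage. Ratios are given for members with at least 20 UMIs and listed genes with at least 50 UMIs in a lineage; up to 6 listed genes per lineage with the largest ratio past 2-fold and an interval leaving out 0 were named, and Smad2, Smad3, Smad4, Fbn1, Ccn2, Ltbp1, Lrrc32, Itgb6, Ccn1, Ltbp2, Lox, Col1a1, Col1a2, Col3a1 and Col5a1 in fibroblast-like cells and Smad3 in T-like cells were named after their values were seen. The immediate-early list was added later. Likeness used log2(CPM + 10) and genes with at least 200 UMIs. With 1 library per genotype no test was made. The ratio intervals were run on simulated Poisson counts, which have no clustering of UMIs in cells. That run checks the calculation and not whether the intervals hold for these data. Python 3.11.15, numpy 2.4.6, scipy 1.17.1 and pandas 2.3.3 were used.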

Additional observations from a re-analysis of the deposited data

Results flagged for a closer look

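For 7 of the 9 genes the TSK library was higher in 1 lineage and lower in another, each with a counting interval that left out 0. The share of all genes that do the same was not taken, so this count does not set the members apart. The ratios are read against 0 here and not against the median of all genes. With 1 library per genotype the difference between lineages was not tested. Tgfb1 had a log2 ratio of 0.84 in endothelial-like and -0.43 in cancer-like cells, and Tgfb3 had 0.57 in macrophage-like and -0.45 in cancer-like cells. Among the receptors, Tgfbr1 had 0.57 in fibroblast-like and -1.40 in neutrophil-like cells, Tgfbr2 had 0.49 in macrophage-like and -1.30 in endothelial-like cells, and Tgfbr3 had 2.02 in macrophage-like and -2.30 in endothelial-like cells. Skil had 0.49 in fibroblast-like and -0.62 in monocyte-like cells. Tgfbi had 2.38 in T-like and -0.72 in macrophage-like cells. With at most 1 marker UMI of other lineages the cancer-like ratios turned to 0.47 for Tgfb1 and 0.64 for Tgfb3, the macrophage-like ratio of Tgfb3 to -0.058 and the monocyte-like ratio of Skil to 0.097, and the endothelial-like ratio of Tgfbr3 was -0.030. The fibroblast-like ratio of Skil was -0.84 without cells over 10000 UMIs.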

How the results depend on the processing

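Of 53 ratios of members, 33 had an interval that left out 0, and 24 of those kept their sign under every alternative run. The share of all genes with such intervals was not taken. Of 448 alternative values, 352 stayed inside the reported interval, 87 left it with the same sign or from a ratio whose interval held 0, and 9 turned sign from a ratio whose interval left out 0; the causes were not tested. In fibroblast-like cells Tgfb2 was 2.61 without cells over 10000 UMIs, from 22 WT cells. With at most 1 marker UMI of other lineages it was 4.25, from 29 WT cells. Both rest on few WT Tgfb2 molecules. Its fibroblast-like ratio was 0.77 scaled by the median gene ratio, 1.42 without the top cell and 1.56 without cells with cancer gene UMIs. Tgfb3 there was 0.65 with at most 1 such marker UMI and -1.32 without Pi16 and Clec3b cells. Tgfbr2 there was -0.20 without cells over 10000 UMIs, -0.31 under the stricter gate (at least 5 UMIs of 3 markers, lead of 4), 0.021 with at most 1 marker UMI of other lineages, -0.35 with equal weight per cell, -0.82 scaled by the median, -0.35 and -1.15 in cells with and without Pi16 or Clec3b, and -0.31 without cells with cancer gene UMIs. Tgfbr3 there was -1.14, -0.31, -1.13, -0.77 (median), -0.25 and -1.62, and -0.24 in the same order, leaving out equal weight. Tgfbr1 in neutrophil-like cells was -0.40 with at most 1 marker UMI, Smad7 in CD8 T-like cells -1.04, and Tgfbi in monocyte-like cells 0.53 without cells over 10000 UMIs, 0.51 with equal weight and 0.10 scaled by the median. Signs turned for Skil in fibroblast-like (-0.84) and Tgfbi in endothelial-like cells (-0.18) without cells over 10000 UMIs, for Tgfb1 (0.47), Tgfb3 (0.64) and Smad7 (0.64) in cancer-like, Tgfbr2 in fibroblast-like (0.021), Tgfb3 in macrophage-like (-0.058) and Skil in monocyte-like cells (0.097) with at most 1 marker UMI, and for Tgfbr1 in fibroblast-like cells without Pi16 and Clec3b (-0.049). The number of listed genes 2-fold apart, reported as 12 cancer-like, 10 endothelial-like, 8 macrophage-like, 7 fibroblast-like, 7 neutrophil-like, 3 T-like and 1 monocyte-like, was 6, 6, 3, 6, 4, 2 and 3 without cells over 10000 UMIs and 20, 4, 3, 14, 1, 1 and 2 with at most 1 marker UMI; with genes of at least 20 UMIs it was 10 in monocyte-like, 12 in neutrophil-like and 6 in T-like cells. Up to 20% mitochondrial UMIs left all 53 ratios in their intervals, and keeping the shared barcodes 48. The alternatives on Pi16, CD8, cancer genes and the top cell were chosen after seeing the data. Of 126 levels, 82 left their interval with at most 1 marker UMI of other lineages, 58 without cells over 10000 UMIs, 19 under the stricter gate, 5 with shared barcodes and 0 at 20% mitochondrial UMIs; of 126 shares of a gene's UMIs by lineage, 116, 114, 56, 24 and 0 did in the same order; of 126 shares of cells with a UMI, 117 did when cells were thinned. No replicate of either genotype can be left out. Counting error alone limits members with few UMIs, and no alternative here replaces the missing replicates.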
